A study of Mus musculus with 2 samples.

Results

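Car1, Car2, Blvrb, Ermap, Aqp1 and Rhd, a set of early erythroid effector genes, were followed as raw counts of unique molecular identifiers (UMIs, each standing for 1 captured RNA molecule) in mouse bone marrow. They were the rows of the deposited matrices whose gene symbol equalled one of these names, and all 6 were found among the 31053 genes of each matrix. The cells were LSK cells, the fraction of bone marrow that lacks lineage markers and carries both Sca1 and c-Kit, from C57BL/6J mice 6 to 8 weeks old. There were 2 libraries, 1 of irradiated mice, whose whole body had received 5 Gy and whose marrow was taken on day 15, and 1 of control mice, both prepared with the droplet-based 3' method of 10x Genomics from freshly flushed marrow after lysis of red blood cells. The number of animals behind each library was not stated, and with 1 library per group no difference between groups could be tested, so that every interval below is a 95% interval for counting error only.

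Red cell precursors are made from stem and multipotent cells by way of progenitors shared with megakaryocytes, and the transcription factors Gata1 and Klf1 switch on red cell genes well before the globins dominate the cell. Car1 and Car2 encode carbonic anhydrases, which convert carbon dioxide and water into bicarbonate. Blvrb encodes biliverdin reductase B, which also acts as a flavin reductase, Ermap a red cell adhesion protein that carries the Scianna blood group in humans, Aqp1 a water channel that carries the Colton blood group in humans, and Rhd a protein of the Rh blood group complex. Sca1 is normally lost on the way to red cells, so that few such cells are found in the LSK gate of an undisturbed marrow.

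On build GRCm38 (mm10), with GENCODE M21 gene models, Car1 lay on the minus strand at chr3:14766216-14808368 and Car2 on the plus strand at chr3:14886273-14900770. These neighbours were 77904 bp apart, with Car3 between them and Car13 on the far side of Car1. Blvrb lay on the plus strand at chr7:27447978-27466144 and Aqp1 on the plus strand at chr6:55336432-55348555. Ermap on the minus strand at chr4:119175457-119190011 and Rhd on the plus strand at chr4:134864536-134896172 shared a chromosome but were not neighbours. No other annotated gene overlapped Car2, Blvrb, Ermap, Aqp1 or Rhd, and a processed pseudogene, Gm16399, overlapped Car1 on the same strand.

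Promoter sequences from RefSeq (GRCm38.p6, 250 bases before to 50 after the start of transcription) matched 4 of the 6 genes, Blvrb with 2 start sites. Among these 4 genes the most alike across clusters were Ermap with Rhd and Aqp1 with Blvrb. Car1, which like Car2 had no promoter entry, also resembled Ermap and Rhd. Whether any motif match bears on these patterns was not tested. Capitals mark matches, on either strand, to a GATA motif (GATA with A or T before it and A or G after it) or to a KLF motif (CCNCNCCC).
Ermap promoter, chr4:119189946-119190245, minus strand: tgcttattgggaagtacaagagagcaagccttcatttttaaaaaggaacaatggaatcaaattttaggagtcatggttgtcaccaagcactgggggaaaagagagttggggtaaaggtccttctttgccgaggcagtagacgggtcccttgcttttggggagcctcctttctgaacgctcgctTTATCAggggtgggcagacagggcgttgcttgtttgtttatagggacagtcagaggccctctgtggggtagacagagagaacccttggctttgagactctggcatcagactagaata
Rhd promoter, chr4:134864286-134864585, plus strand: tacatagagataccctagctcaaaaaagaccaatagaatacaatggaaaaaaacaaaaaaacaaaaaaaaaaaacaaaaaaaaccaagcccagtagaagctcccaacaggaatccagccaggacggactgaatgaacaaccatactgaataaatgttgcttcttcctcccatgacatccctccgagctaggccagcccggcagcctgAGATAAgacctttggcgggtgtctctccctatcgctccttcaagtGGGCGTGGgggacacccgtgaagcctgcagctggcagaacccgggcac
Aqp1 promoter, chr6:55336049-55336348, plus strand: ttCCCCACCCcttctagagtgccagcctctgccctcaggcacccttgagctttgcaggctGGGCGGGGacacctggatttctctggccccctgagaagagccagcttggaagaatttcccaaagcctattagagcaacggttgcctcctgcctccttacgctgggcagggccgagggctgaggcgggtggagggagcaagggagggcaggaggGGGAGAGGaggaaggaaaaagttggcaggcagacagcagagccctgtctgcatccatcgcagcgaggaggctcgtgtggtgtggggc
Blvrb promoter, chr7:27447728-27448027, plus strand: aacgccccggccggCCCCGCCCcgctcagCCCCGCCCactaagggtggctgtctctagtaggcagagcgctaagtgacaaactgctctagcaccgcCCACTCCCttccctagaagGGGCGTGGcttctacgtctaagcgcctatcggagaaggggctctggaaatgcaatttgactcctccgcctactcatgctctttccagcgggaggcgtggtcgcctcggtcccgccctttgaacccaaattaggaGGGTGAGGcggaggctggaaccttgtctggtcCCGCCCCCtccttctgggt

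The Ermap promoter held 1 GATA match, at position -67 from the start site and read on the opposite strand, and no KLF match. The Rhd promoter held 1 GATA match at position -43 and 1 KLF match beginning just after the start site, which did not overlap. The Aqp1 promoter held 3 KLF matches and no GATA match, and the first Blvrb promoter held 6 KLF matches and no GATA match. The second Blvrb start site, 4440 bases downstream and not printed, had 1 GATA match and no KLF match. Among 32851 mouse promoter entries of the same length, 29.8% held a GATA match, 49.5% a KLF match and 10.2% both. A match describes letters only and shows no binding.

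The irradiated library held 5596 barcodes and 165119247 UMIs, and the control library 7686 barcodes and 139274656 UMIs. Filters kept 5112 irradiated cells, at a median depth of 29615 UMIs, and 7188 control cells, at a median depth of 16083.5 UMIs. Only 16 barcodes were common to both libraries. Levels are given as UMIs per 1000000 UMIs of the cells summed (CPM). A gene counted as different where the libraries stood 2-fold or more apart in CPM and their mean CPM reached 5, the minimum level below.

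Over all cells, 5 of the 6 genes had higher CPM in the irradiated library, and Car2 had lower CPM. Car1 stood at 168 CPM (166 to 170) in irradiated cells and 13.1 CPM (12.5 to 13.7) in control cells, 12.8 times higher, a log2 ratio of 3.68 (3.61 to 3.75). Ermap stood at 12.2 CPM in irradiated and 0.898 CPM in control cells, a log2 ratio of 3.76 (3.5 to 4.03). The 2 genes thus had ratios whose counting intervals overlapped, although Ermap rested on 1980 irradiated and 124 control UMIs and Car1 on 27375 and 1808.

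Aqp1 stood at 19.0 CPM in irradiated and 3.27 CPM in control cells, a log2 ratio of 2.54 (2.4 to 2.69). Rhd stood at 5.52 CPM in irradiated and 0.775 CPM in control cells, a log2 ratio of 2.83 (2.54 to 3.14), and its mean of 3.15 CPM was below the minimum for counting. Blvrb was lower in ratio, with 74.2 CPM in irradiated and 32.8 CPM in control cells and a log2 ratio of 1.18 (1.13 to 1.23). Car2 ran the other way, with 251 CPM (249 to 254) in irradiated and 344 CPM (341 to 347) in control cells, a log2 ratio of -0.45 (-0.47 to -0.43). Of the 5 genes above the minimum level, 4 stood higher by 2-fold or more and 0 lower. Among all 9032 genes above it, 1.41% stood higher and 4.79% lower by that much, 6.2% in all. The median log2 ratio was 2.54 over those 5 genes and -0.06 over all genes.

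**Figure D1:**
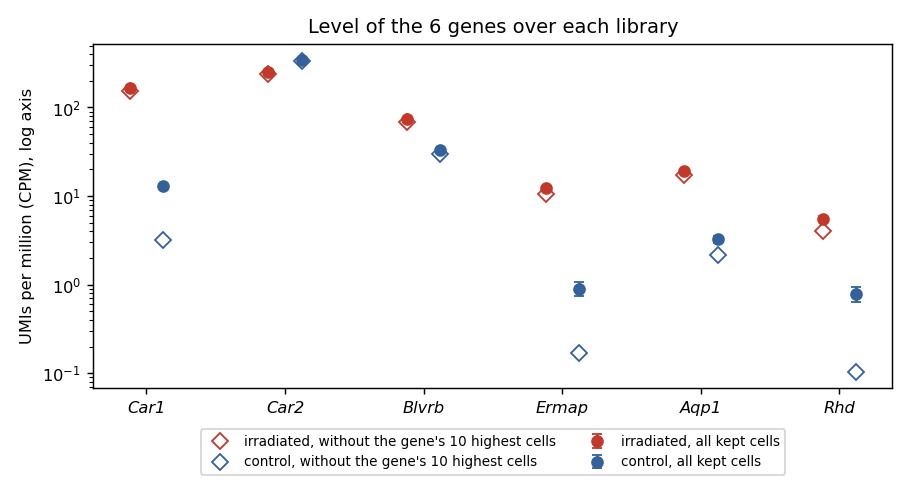
CPM of each gene (log axis) in the irradiated (red, left) and control (blue, right) library, as filled points with 95% counting intervals. Open diamonds leave out the gene's 10 cells with the most UMIs in that library: control Car1 then stands at 3.15 CPM in place of 13.1, while control Car2 stands at 337 in place of 344.

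The UMIs of Car1, Ermap and Rhd came from very few control cells. The 10 highest cells held 9.75% of Car1 UMIs in the irradiated library and 76.0% in the control library. For Ermap these shares were 14.0% in irradiated and 81.5% in control cells, and for Rhd 26.6% and 86.9%. In the irradiated library 73 cells were needed to collect 50% of Car1 UMIs, whereas 5 were enough in the control library. For Ermap it took 59 irradiated and 4 control cells, and for Rhd 26 irradiated and 3 control cells. The highest control cell for Rhd alone held 24.3% of that library's Rhd UMIs, and the highest irradiated cell 4.89%.

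Aqp1 was less concentrated, with 8.24% of irradiated and 33.5% of control UMIs in its 10 highest cells and 111 irradiated against 27 control cells holding 50% of them. Car2 showed the opposite order by both measures, with 5.64% of irradiated and 2.31% of control UMIs in its 10 highest cells. Blvrb did so only in the number of cells holding 50%. Its 10 highest cells held 7.78% of irradiated and 9.69% of control UMIs. It took 278 irradiated but 1324 control cells to collect 50% of Car2 UMIs, and 127 irradiated but 689 control cells for Blvrb. For both genes 50% of the UMIs thus lay in fewer cells in the irradiated than in the control library.

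**Figure D2:**
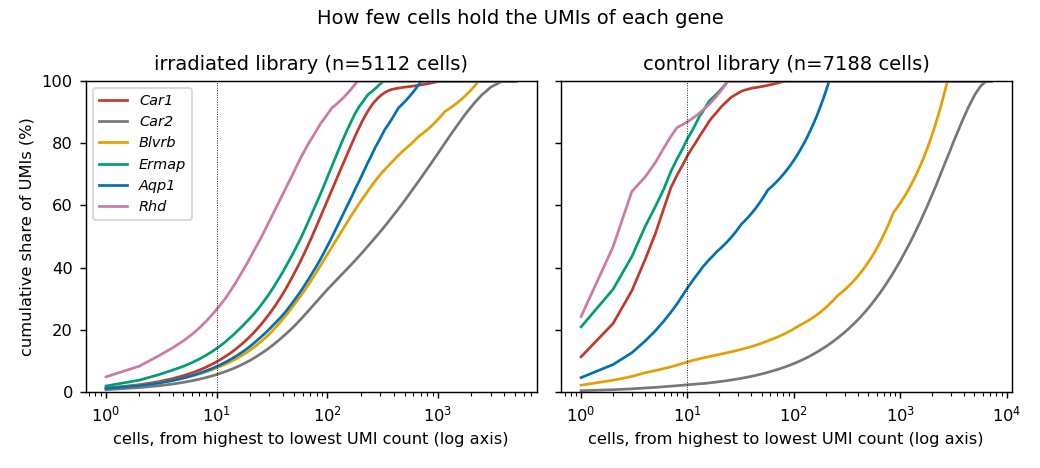
Cumulative share of each gene's UMIs (y axis, %) against the number of cells taken from the highest count downwards (x axis, log), in the irradiated library (left) and the control library (right). The dotted line marks 10 cells, at which control Car1, Ermap and Rhd have reached 76.0%, 81.5% and 86.9%, while the control curves of Blvrb and Car2 stand at 9.69% and 2.31%.

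Cells differ in depth between the libraries, so shares of cells with a UMI were counted after each cell was thinned to 5000 UMIs, which left 5053 irradiated and 7122 control cells (59 and 66 were shallower). Car1 was then detected in 9.54% (8.74 to 10.4) of irradiated and 0.576% (0.413 to 0.78) of control cells, and without thinning in 20.4% and 1.14%. Ermap was detected in 3.29% of irradiated and 0.154% of control cells, Aqp1 in 6.73% and 1.17%, and Rhd in 1.33% and 0.112%. Without thinning these shares were 6.26% and 0.334% for Ermap, 13.8% and 2.99% for Aqp1, and 3.68% and 0.334% for Rhd. Car2 was detected in 44.0% (42.6 to 45.4) of irradiated and 68.9% (67.8 to 70.0) of control cells, and Blvrb in 18.1% and 14.5%, with 74.4% and 89.9% for Car2 and 45.8% and 38.7% for Blvrb before thinning.

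B lineage cells should lack red cell genes, and UMIs of such genes in them could come from free RNA. Car1 was found after thinning in 0 of 23 irradiated B lineage cells, which allows a share of up to 13.0%, and in 0 of 102 control ones, which allows up to 2.94%. Their median depths before thinning were 24135 UMIs in irradiated and 22435 UMIs in control cells. Ermap, Aqp1 and Rhd were also at 0 in these cells in both libraries. Blvrb was found in 17.4% (4.95 to 38.8) of irradiated and 10.8% (5.51 to 18.5) of control B lineage cells, and Car2 in 34.8% and 41.2%. In neutrophil-like cells, at median depths of 44714 UMIs in irradiated and 43386 UMIs in control cells, Blvrb was found in 5.49% (4.2 to 7.04) and 12.3% (6.69 to 20.1), and Car2 in 6.34% and 8.49%. In T or NK lineage cells Blvrb was found in 7.55% of 53 irradiated and 11.4% of 44 control cells, and Car2 in 49.1% and 34.1%. Car1 was not at 0 in all of these cells. It was found in 22 of 1056 irradiated neutrophil-like cells (2.08%, 1.31 to 3.14) and in 0 of 106 control ones, which allows up to 2.83%. Among T or NK lineage cells 1 of 53 irradiated and 0 of 44 control cells held Car1. Of the 1056 irradiated neutrophil-like cells, 7 held Aqp1, 1 held Ermap and 1 held Rhd. Aqp1 was also found in 1 of 44 control T or NK lineage cells. The intervals for Blvrb overlapped between B lineage, T or NK lineage and neutrophil-like cells in both libraries, while those for Car2 lay apart between B lineage and neutrophil-like cells. The part of free RNA in these shares was not tested.

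To place the genes in cell types, cells were clustered without the 6 genes and clusters were named from separate marker lists. Cluster 10 was named erythroid-like, with Klf1, Cldn13, Rhag, Sphk1 and Samd14 among its 25 leading genes and all 12 markers of the list detected in both libraries, though globins of the late red cell list were as many among its 10 leading genes (2 of each). Car1 and Ermap, which had no part in building it, led its genes by fold. It held 532 irradiated cells (10.4% of the library) and 52 control cells (0.723%). The list of 12 erythroid markers summed to 777 CPM in its irradiated and 721 CPM in its control cells, against 122 CPM in all irradiated and 69.1 CPM in all control cells. Some genes of this list ran the other way in the cluster. Cnrip1 stood at 2.19 CPM in irradiated and 4.61 CPM in control cells of the cluster, and Hemgn at 57.0 and 102 CPM. Cldn13 stood there at 54.6 CPM in irradiated and 74.6 CPM in control cells, and Smim1 at 67.5 and 71.9 CPM. Over all cells, where both are part of these sums, Cnrip1 stood at 10.6 CPM in irradiated and 27.8 CPM in control cells, and Hemgn at 16.5 and 19.4 CPM.

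The control cells of cluster 10 were a mixture. Genes of mast cells or basophils summed to 223 CPM in its irradiated and 7110 CPM in its control cells, with 96.8% of the control sum in 10 cells and 9 of 10 (irradiated) and 8 of 10 (control) listed genes detected. Tpsb2 was at 0 in both libraries and Cma1 in control cells. Genes of late red cells, which include globins, Alas2 and Slc4a1, summed to 1060 CPM in irradiated and 5110 CPM in control cells, with 99.7% of the control sum in 10 cells and all 7 genes detected in both. Cells in which either list took at least 1% of the UMIs numbered 13 of 532 irradiated and 17 of 52 control cells, and values within the cluster are therefore also given for the other 519 irradiated and 35 control cells.

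Car1, Ermap and Rhd were almost confined to the erythroid-like cluster in both libraries. It held 97.1% of irradiated and 96.3% of control Car1 UMIs, 98.3% and 94.4% of Ermap UMIs, and 96.2% and 90.7% of Rhd UMIs. Car1 stood there at 1760 CPM in irradiated and 1610 CPM in control cells. The next highest cluster for Car1 was the megakaryocyte-like one, with 16.8 CPM in irradiated and 2.1 CPM in control cells. Ermap stood at 129 CPM in irradiated and 108 CPM in control erythroid-like cells and at no more than 0.781 CPM in irradiated and 0.119 CPM in control cells of any other cluster. Rhd stood at 57.3 CPM in irradiated and 89.4 CPM in control erythroid-like cells, and at no more than 3.12 CPM in irradiated and 0.16 CPM in control cells elsewhere.

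Outside the erythroid-like and megakaryocyte-like clusters, Car1 lay between 1.63 and 10.2 CPM in the 11 irradiated clusters and between 0 and 1.28 CPM in the same control clusters. These levels included T or NK lineage cells (6.12 CPM in irradiated, 0 in control) and neutrophil-like cells (4.09 CPM in irradiated, 0 in control). Thinned cells with 5 or more Car1 UMIs lay in the erythroid-like and megakaryocyte-like clusters alone. Of 264 such irradiated cells, 263 lay in the erythroid-like cluster and 1 in the megakaryocyte-like cluster, and all 21 control cells lay in the erythroid-like cluster. In cluster 2, 1 cell held 22.8% of the irradiated Car1 UMIs, and in neutrophil-like cells the highest cell held 3.59%. The part of free RNA in these low levels was not tested.

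Aqp1 and Blvrb were highest in erythroid-like cells and came next in megakaryocyte-like cells, a cluster of 449 irradiated and 181 control cells with Pf4, Gp5, Vwf and Itga2b among its leading genes. Aqp1 stood at 173 CPM in irradiated and 197 CPM in control erythroid-like cells, and at 35.6 CPM (32.0 to 39.6) in irradiated and 32.8 CPM (27.3 to 39.0) in control megakaryocyte-like cells. Elsewhere it stood at no more than 3.26 CPM in irradiated and 3.0 CPM in control cells, so that the erythroid-like cluster held 84.5% of irradiated but 47.5% of control Aqp1 UMIs. Blvrb stood at 600 CPM in irradiated and 561 CPM in control erythroid-like cells, at 77.7 CPM (72.3 to 83.4) and 68.1 CPM (60.1 to 76.9) in megakaryocyte-like cells, and at 53.1 CPM and 54.9 CPM in HSC-like cells. In the monocyte- or dendritic-like cluster its interval was 17.1 to 35.3 CPM in irradiated cells and 41.4 to 100 CPM, around 66.1 CPM, in control cells, so that the control level overlapped that of megakaryocyte-like cells. It was found in every cluster, down to 12.5 CPM in irradiated and 14.3 CPM in control cells of cluster 6, an unnamed one with Cebpa and Ctsg among its leading genes. The erythroid-like cluster held 75.1% of irradiated and 13.4% of control Blvrb UMIs.

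Car2 was found across most of the stem and progenitor clusters, and its pattern was not that of a gene of erythroid cells alone. The erythroid-like cluster held 52.0% of its irradiated but 2.86% of its control UMIs. It stood at 1410 CPM in irradiated and 1250 CPM in control erythroid-like cells, at 652 CPM and 892 CPM in megakaryocyte-like cells, and at 481 CPM and 779 CPM in HSC-like cells. In cluster 7, unnamed and with Hlf and Procr among its leading genes, it stood at 378 CPM in irradiated and 621 CPM in control cells. Clusters 1 and 2 came next, with overlapping intervals in irradiated cells (246 and 258 CPM) and 386 CPM each in control cells. The lowest level was in neutrophil-like cells, with 16.4 CPM in irradiated and 23.9 CPM in control cells. Of 445 irradiated cells with at least 5 Car2 UMIs after thinning, 246 lay in the erythroid-like, 118 in the megakaryocyte-like and 81 in other clusters. Of 1024 such control cells, 14 lay in the erythroid-like, 83 in the megakaryocyte-like and 927 in other clusters.

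**Figure D3:**
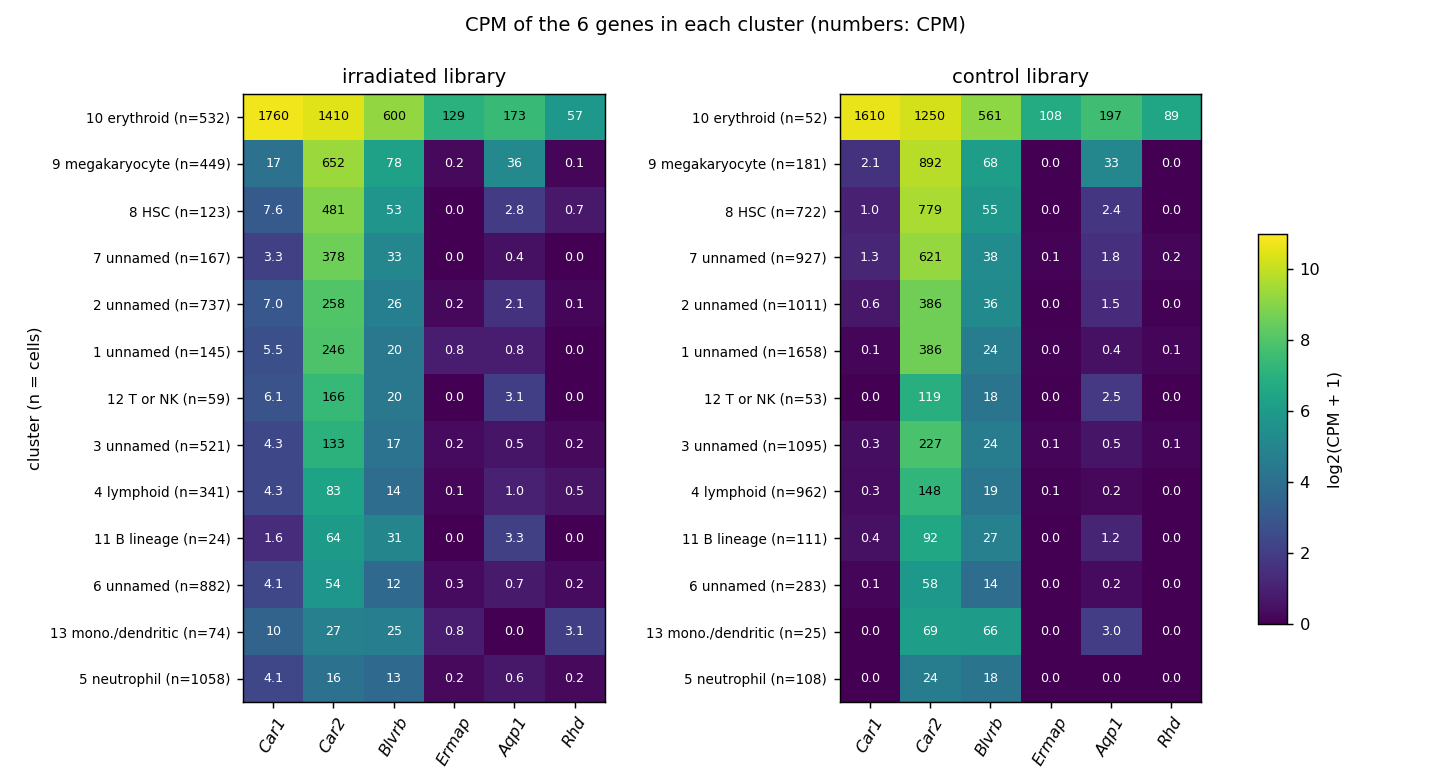
CPM of the 6 genes (columns) in the 13 clusters (rows, ordered by irradiated Car2, with the number of cells n) of the irradiated library (left) and the control library (right); colour is log2(CPM + 1). Car1, Ermap and Rhd are bright in the erythroid-like row alone, and Aqp1 also has some signal in the megakaryocyte-like row. Blvrb is brightest in the erythroid-like row and has lower signal in every other row. Car2 falls off gradually through the HSC-like row and clusters 7, 1 and 2.

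Within the erythroid-like cluster the libraries were much closer than over all cells. The log2 ratio of irradiated over control CPM was 0.13 (0.06 to 0.2) for Car1, 0.17 (0.09 to 0.25) for Car2 and 0.1 (-0.02 to 0.22) for Blvrb. It was 0.26 (-0.01 to 0.54) for Ermap, -0.19 (-0.39 to 0.02) for Aqp1 and -0.64 (-0.95 to -0.32) for Rhd. None of the 6 genes stood 2-fold apart with this cluster whole, which did not hold for all ways of drawing the class given below. Of the 8699 genes above the minimum level in this cluster, 8.28% were 2-fold apart, 2.53% higher and 5.75% lower.

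These ratios depended on a handful of control cells and on how the class was drawn. Trimming each gene's 10 highest cells takes 10 of 532 irradiated but 10 of 52 control cells. It therefore tends to raise the ratio of any gene whose UMIs lie in few cells, and its effect over all genes was not computed. The log2 ratios then became 1.48 for Car1, 1.41 for Car2, 1.15 for Blvrb, 2.3 for Ermap, 0.77 for Aqp1 and 3.0 for Rhd. The broader cluster at resolution 0.5 (968 irradiated and 207 control cells) gave 1.45 for Car1, 1.07 for Blvrb and 1.58 for Ermap, and the cells with at least 2 Klf1 UMIs (91 and 5) gave 2.04 for Ermap. For Rhd, 26.8% of the control UMIs of the cluster came from 1 cell, and 27.6% of irradiated and 95.9% of control UMIs came from 10 cells. Without the cells rich in mast cell or late red cell genes the log2 ratios became -0.16 (-0.23 to -0.09) for Car1, 0.2 for Car2, 0.22 for Blvrb, 0.31 for Ermap, -0.37 (-0.58 to -0.15) for Aqp1 and -0.11 (-0.53 to 0.35) for Rhd. The sign for Car1 thus turned, and the lower value of Rhd no longer lay outside counting error. Over the thinned cells of the cluster the median cell held 5 Car1 UMIs in irradiated and 3.5 in control cells, the upper quartile 13 and 10.75, and the highest cell 43 and 24. For Car2 the median was 4 UMIs in irradiated and 3 in control cells, and for Blvrb 2 and 1.

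Weighting clusters by their share of UMIs shows how the totals are made up. The erythroid-like cluster held 9.28% of irradiated and 0.786% of control UMIs. If every cluster kept its control level but took its irradiated share of UMIs, Car1 would stand at 149 CPM, against 168 CPM measured in irradiated and 13.1 CPM measured in control cells. Computed in the same way, Ermap would stand at 10.0 CPM, Aqp1 at 20.7, Rhd at 8.32 and Blvrb at 74.4 CPM, where 12.2, 19.0, 5.52 and 74.2 CPM were measured in irradiated cells. Car2 would stand at 292 CPM, between the 251 CPM of irradiated and the 344 CPM of control cells. In the reverse weighting every cluster kept its irradiated level but took its control share of UMIs. Car2 would then stand at 223 CPM, below both measured values, so that the direction of its shift depended on the levels used. Car1 would stand at 19.1 CPM, Ermap at 1.29, Aqp1 at 3.39, Rhd at 0.647 and Blvrb at 28.2 CPM. Measured in control cells were 13.1, 0.898, 3.27, 0.775 and 32.8 CPM. This is arithmetic on the cluster levels, and the control levels in it rest on 52 erythroid-like cells.

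Car2 was lower in the irradiated library within most clusters. The interval of its log2 ratio lay below 0 in 10 of 13 clusters, from -0.45 (-0.51 to -0.39) in megakaryocyte-like cells to -1.38 (-2.19 to -0.55) in the few monocyte- or dendritic-like cells. It was -0.69 (-0.81 to -0.58) in HSC-like, -0.84 (-0.96 to -0.71) in lymphoid-like and -0.54 (-0.84 to -0.23) in neutrophil-like cells. It lay above 0 in the erythroid-like and in T or NK lineage cells, at 0.48 (0.1 to 0.86) in the second, and included 0 in cluster 6. The erythroid-like ratio fell below 0 under some other ways of drawing the class, given below. In megakaryocyte-like cells, where 2.77% of 9065 genes stood 2-fold apart (0.938% higher and 1.83% lower), Aqp1 (0.12, -0.18 to 0.43) and Blvrb (0.19, -0.01 to 0.4) had intervals that included 0. Blvrb had an interval below 0 in 5 of 13 clusters and above 0 in none. Car1 had an interval above 0 in 9 of 13 clusters and below 0 in none. In megakaryocyte-like cells its log2 ratio was 3.0 (1.99 to 4.23), at 16.8 CPM in irradiated and 2.1 CPM in control cells. These levels rested on 167 irradiated and 8 control UMIs, and the part of free RNA in them was not tested.

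**Figure D4:**
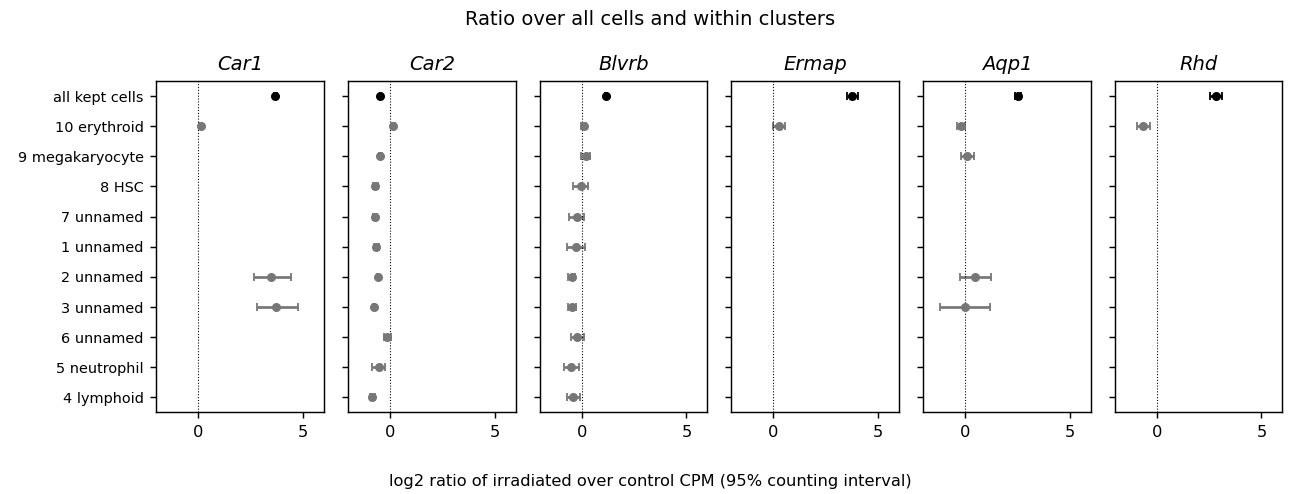
Log2 ratio of irradiated over control CPM (x axis) for each gene, over all kept cells (black) and within clusters (grey) that held at least 10 UMIs of the gene in each library; bars are 95% counting intervals. Car1, Ermap, Aqp1 and Rhd lie far to the right over all cells and near 0 in the erythroid-like cluster, where Rhd stands at -0.64, and Car2 lies left of 0 in most rows. The high ratios of Car1 in clusters 2 and 3 compare levels of 7.02 with 0.628 CPM and 4.29 with 0.328 CPM, irradiated first.

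Cells were also sorted by their own UMIs of 2 transcription factors, without clusters. In irradiated cells the levels of all 6 genes were graded, and in control cells those of Car1, Ermap and Aqp1 were in the same order. After thinning, 91 irradiated and 5 control cells held at least 2 UMIs of Klf1, 201 and 22 held 1, and 259 and 65 held Gata1 without Klf1. In irradiated cells Car1 stood at 52.5 CPM with neither factor, 403 CPM with Gata1 alone, 1340 CPM with 1 Klf1 UMI and 2140 CPM (2010 to 2280) with at least 2. The same series for Ermap was 2.09, 27.8, 100 and 165 CPM, and for Rhd 1.16, 5.41, 39.8 and 87.9 CPM. Car2 was graded less steeply, with 186, 713, 1150 and 1730 CPM in irradiated cells. With neither factor it stood at 186 CPM (180 to 192) in irradiated and 414 CPM (408 to 421) in control cells, and with Gata1 alone at 713 CPM (667 to 760) and 877 CPM (778 to 985).

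In control cells Car1 stood at 2.84 CPM with neither factor, 185 CPM with Gata1 alone, 600 CPM with 1 Klf1 UMI and 2680 CPM with at least 2. Car2 was not graded throughout, with 414, 877, 773 and 1920 CPM in that order, nor was Blvrb, with 32.6, 182, 145 and 1080 CPM, and the intervals of the middle groups overlapped for both. Control Ermap and Rhd rested on 1 to 10 UMIs per group. Ermap stood at 0.284, 12.3, 36.4 and 40.0 CPM and Rhd at 0.256, 12.3, 9.09 and 80.0 CPM, with overlapping intervals in the middle groups for both.

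At 1 Klf1 UMI the irradiated level of Car1 was 1340 CPM (1270 to 1420), against 600 CPM (464 to 763) in control cells. Blvrb there stood at 430 CPM (390 to 472) in irradiated and 145 CPM (83.1 to 236) in control cells. Of those cells 150 of 201 irradiated and 7 of 22 control cells lay in the erythroid-like cluster. With at least 2 Klf1 UMIs the intervals of all 6 genes overlapped between the libraries, and the 5 control cells left them wide, 2080 to 3400 CPM for Car1.

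**Figure D5:**
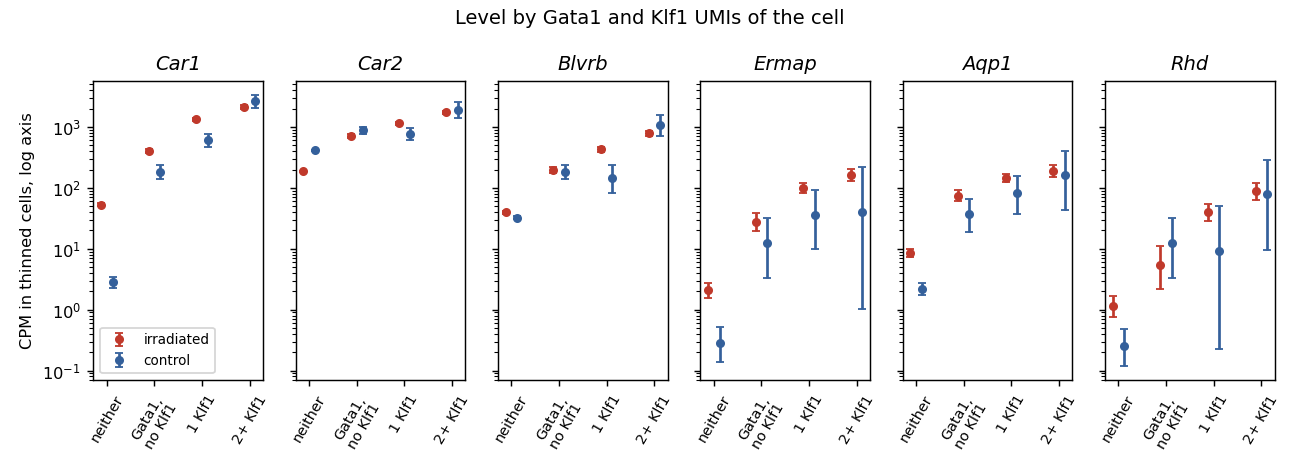
CPM of each gene (log axis, thinned cells) in cells grouped by their own Gata1 and Klf1 UMIs, irradiated (red, left) and control (blue, right), with 95% counting intervals. From left to right the irradiated Car1 points stand at 52.5, 403, 1340 and 2140 CPM, and irradiated Car2 is below control Car2 in the group with neither factor.

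Several of the 6 genes were often found in the same cell. In the erythroid-like cluster 70.8% of irradiated (364 of 514) and 54.3% of control (25 of 46) thinned cells held UMIs of at least 3 of them. Over all cells this was 8.19% in irradiated and 0.576% in control cells. Of 163 irradiated erythroid-like cells with Ermap, 91.4% (86.0 to 95.2) also held Car1, 94.5% Blvrb and 97.5% Car2, while 25.2% (18.7 to 32.5) held Rhd. In the 351 irradiated cells of the cluster without Ermap these shares were 61.0% for Car1, 71.2% for Blvrb, 86.9% for Car2 and 5.41% for Rhd, so that Car2 and Blvrb were common with or without Ermap. In control cells all 9 with Ermap held Car1, Blvrb and Car2, and 4 held Rhd, while of 37 without Ermap 51.4% held Car1, 56.8% Blvrb, 67.6% Car2 and 5.41% Rhd. Of 60 irradiated erythroid-like cells with Rhd, 68.3% held Ermap, against 26.9% of the 454 without Rhd, and in control cells it was 4 of 6 with Rhd and 12.5% of 40 without. All 6 genes were found in 28 irradiated cells (5.45% of the cluster) and 2 control cells (4.35%), at a depth of 5000 UMIs that misses many low transcripts.

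Across 26 points, which were the 13 clusters in each library, Ermap and Rhd were the most alike pair of members (Pearson r = 0.98 on log2(CPM + 1)), and Car1 had r = 0.92 with each. Aqp1 and Blvrb had r = 0.91, and Car1 and Car2, though neighbours in the genome, had r = 0.46. These points share 2 libraries and the depth of each cluster, and the values are descriptive. Ermap and Rhd were low in every other cluster, so that their r rests mainly on the erythroid-like one. The other gene most like Car1 was Tspo2 (r = 0.945), a translocator protein of late erythroid cells, followed by the metallothionein Mt2 (0.944) and Cpox (0.913), an enzyme of heme synthesis. Tspo2 was also the gene most like Ermap (0.943) and Rhd (0.95). Cpox (0.912) was among the most alike for Ermap, and Prss34 (0.893), a mast cell and basophil protease, for Rhd. Aqp1 was most like Ces2g (0.938), Mfsd2b (0.917), a transporter of sphingosine-1-phosphate, and Klf1 (0.913). Blvrb was most like Pon2 (0.913), Rfesd (0.909) and Ces2g (0.902). Car2 was most like Hemgn (0.919), a nuclear protein of blood progenitors, Nfia (0.903) and Vamp5 (0.898).

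Other red cell genes were described with lists that, like the members, had been chosen with earlier results of these data known. Over all cells, 3 of 12 erythroid transcription factors above the minimum level were at least 2-fold higher in the irradiated library and 1 was lower. Klf1 stood at 15.5 CPM in irradiated and 1.42 CPM in control cells (log2 ratio 3.45), Gata1 at 15.1 and 2.71 CPM (2.48) and Gfi1b, a repressor needed by red cell and platelet precursors, at 14.7 and 4.79 CPM (1.62). Bcl11a, a repressor of fetal globin, was the lowest at 80.8 and 163 CPM (-1.01). The median of this list was -0.21, against -0.06 over all genes.

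Of the receptors and iron genes, 1 of 4 was 2-fold higher and 0 lower. Tfrc, the transferrin receptor, stood at 61.0 CPM in irradiated and 26.5 CPM in control cells (log2 ratio 1.2), and Slc25a37, the mitochondrial iron carrier, was the lowest at 24.2 and 28.3 CPM (-0.22). Of the genes for heme synthesis 2 of 8 were 2-fold higher and 0 lower, with Alas1 at 68.9 CPM in irradiated and 28.4 CPM in control cells (1.28) and Ppox the lowest at 10.1 and 11.7 CPM (-0.21). For heme breakdown 0 of 2 differed 2-fold. Hmox2, a heme oxygenase upstream of biliverdin, stood at 72.3 CPM in irradiated and 72.4 CPM in control cells, and Blvra, the other biliverdin reductase, at 33.3 and 30.5 CPM (0.13). The ratio of Blvrb, 1.18, was therefore not shared by either.

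All 4 globin genes above the minimum level were 2-fold higher over all cells, from Hbb-bt at 80.4 CPM in irradiated and 37.2 CPM in control cells (log2 ratio 1.11) to Hba-a2 at 12.6 and 2.98 CPM (2.08). The near-identical copies Hba-a1 and Hba-a2, and likewise Hbb-bs and Hbb-bt, can share reads. Within the erythroid-like cluster the same 4 genes were at least 2-fold lower in irradiated cells, with Hbb-bs at 438 CPM in irradiated and 2260 CPM in control cells (-2.37). Without the cells rich in mast cell or late red cell genes, a rule that itself uses the globins, Hbb-bs stood at 51.6 CPM in irradiated and 23.7 CPM in control cells (1.12, 0.49 to 1.84) and Hba-a1 at 29.3 and 45.0 CPM (-0.62, -1.1 to -0.1). Over all cells 10 cells held 58.9% of irradiated and 56.1% of control UMIs of the late red cell list.

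Of the 18 red cell membrane genes 7 reached the minimum level, and 0 of them differed 2-fold either way over all cells, with Icam4, a red cell adhesion protein, the highest (16.2 CPM in irradiated and 8.46 CPM in control cells, 0.94) and Add1, an adducin of the membrane skeleton, the lowest (29.8 and 41.2 CPM, -0.47). Rhag, the partner of Rhd in the Rh complex, was below the minimum level at 5.4 CPM in irradiated and 0.478 CPM in control cells. Of the other carbonic anhydrases only Car3 (6.49 and 9.23 CPM, -0.51) and Car9 (7.12 and 8.74 CPM, -0.3) reached it, and neither differed 2-fold. None of the 10 other aquaporins listed reached the minimum level over all cells.

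The erythroid-like cells came through a sort for Sca1 and c-Kit. Ly6a, which encodes Sca1, stood in them at 82.9 CPM in irradiated and 21.2 CPM in control cells (log2 ratio 1.97, 1.38 to 2.63), against 218 CPM and 156 CPM over all cells. Kit stood in them at 88.4 CPM in irradiated and 117 CPM in control cells (-0.4), against 73.5 CPM and 132 CPM over all cells. Without the cells rich in mast cell or late red cell genes Ly6a stood at 83.7 CPM in irradiated and 23.7 CPM in control erythroid-like cells. Over all cells Cd55, a complement regulator found on early erythroid progenitors, had the highest ratio of the commitment-stage genes above the minimum level. It stood at 10.2 CPM in irradiated and 3.63 CPM in control cells (1.49), and Kit had the lowest ratio (-0.85). Slamf1, below the minimum level, stood at 6.37 CPM in irradiated and 2.19 CPM in control cells (1.54). Of 11 genes of that list above the minimum level 1 was 2-fold higher and 0 lower.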

How the data were processed

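The authors deposited 1 matrix of raw UMI counts per library, whole numbers per gene and barcode, for LSK cells of 1 irradiated and 1 control library. Cell Ranger 2.1.1 and build mm10 are named per the submitters' processing notes and software version 3.1.0 per the file headers, a conflict that could not be settled here. Gene identifiers came from the files, and 30934 of 31053 were found in GENCODE M21. No column of another series was present.

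From these counts, barcodes below 1000 UMIs or 500 genes, or above 10% mitochondrial UMIs, were dropped, which removed 468 irradiated and 496 control barcodes. Scrublet (expected rate 0.06, as in scanpy 1.11.5) marked 16 irradiated and 2 control cells, 0.312% and 0.0278%, and so has not worked as a doublet caller here. The marked cells were left out. Kept cells held 162748209 irradiated and 138080503 control UMIs. UMIs were summed per library, cluster or marker group and scaled to 1000000 (CPM), with exact Poisson intervals. Ratios carry Clopper-Pearson intervals conditional on the gene's total, and shares of cells carry exact binomial intervals. All are at 95% and cover counting error only, since PCR, droplets and animals add spread that 1 library per group cannot show. The limit for a count of 0 was 3 counts. No test was made and no p-value is given. The scripts were tested on simulated data.

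Clusters came from 2000 variable genes, without the 6 members and without cell cycle, histone, ribosomal, mitochondrial and sex-linked genes, by way of 30 principal components, 15 neighbours from each library and Leiden clustering (leidenalg 0.10.2) at resolution 1 on the shared-neighbour graph. Names were given by a rule made once the data had been seen. It asked for 3 or more markers of a list among the 25 genes of highest fold (of genes in 10% or more of the cluster), 3 or more markers in 10% or more of the cells, and no competing list with more markers than its own in the top 10. Other clusters kept their number. Genes named beside the members were the highest and lowest of each list at a mean of at least 5 CPM and, for each member, the 3 most alike over clusters of at least 20 cells, on log2 of the CPM plus a pseudocount of 1, with some items not reported here. Some others were named after their values were seen, among them Gfi1b, Hbb-bs, Rhag, Ly6a and the genes leading clusters. The members and lists were chosen with earlier results of these data known. Alternatives changed the cell filters, doublet step, weighting, thinning, scaling and clustering. Leaving out cells rich in mast cell or late red cell genes was chosen after seeing the data.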

Additional observations from a re-analysis of the deposited data

Results flagged for a closer look

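Car2 had log2 ratios of irradiated over control CPM of opposite sign in different clusters, with intervals of counting error that excluded 0. The ratio was 0.17 in erythroid-like and 0.48 in T or NK lineage cells. It was -0.65 in cluster 1, -0.58 in cluster 2, -0.77 in cluster 3 and -0.72 in cluster 7. It was -0.84 in lymphoid-like, -0.54 in neutrophil-like, -0.69 in HSC-like, -0.45 in megakaryocyte-like, -0.54 in B lineage and -1.38 in monocyte- or dendritic-like cells. The sign in erythroid-like cells depended on how the class was drawn. The ratio there was -0.07 at resolution 2, -0.1 with 30 neighbours from all cells and -0.15 in cells with at least 2 Klf1 UMIs. It was 0.19 at resolution 0.5, 0.2 without cells rich in mast cell or late red cell genes and 1.41 without the 10 highest cells. The difference between clusters was not tested.

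Barcodes removed by the cell filters (468 irradiated and 496 control), which enter no comparison above, held more UMIs of 5 of the genes in the irradiated than in the control library. Car1 stood there at 112 CPM in irradiated and 19.6 CPM in control barcodes, Blvrb at 103 and 44.4 CPM, and Ermap at 36.4 and 4.44 CPM. Aqp1 stood at 43.1 CPM in irradiated and 16.9 CPM in control barcodes and Rhd at 11.9 and 1.78 CPM. The control values of Ermap and Rhd rest on 5 and 2 UMIs.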

How the results depend on the processing

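No paired analysis was possible because each group had 1 library. Over all cells no ratio changed sign under any of the 9 alternatives, with log2 ratios of 3.45 to 5.59 for Car1, -0.59 to -0.35 for Car2, 1.1 to 1.22 for Blvrb, 3.74 to 5.97 for Ermap, 2.41 to 3.01 for Aqp1 and 2.73 to 5.32 for Rhd. Trimming each gene's 10 highest cells gave the upper ends for Car1, Ermap, Aqp1 and Rhd. It removed 9.75% of irradiated but 76.0% of control Car1 UMIs. Such trimming tends to raise the ratio of a gene whose control UMIs lie in few cells. Values that moved beyond the counting interval were as follows. Without each gene's 10 highest cells they were 5.59 for Car1, -0.5 for Car2, 5.97 for Ermap, 3.01 for Aqp1 and 5.32 for Rhd. With each cell weighted equally they were 4.1 for Car1, -0.53 for Car2, 1.1 for Blvrb, 4.34 for Ermap and 2.78 for Aqp1. In cells thinned to 5000 UMIs they were 4.28 for Car1, -0.59 for Car2, 4.26 for Ermap, 2.85 for Aqp1 and 3.32 for Rhd. At a mitochondrial limit of 5% they were 3.45 for Car1, -0.35 for Car2 and 3.35 for Rhd. Without the 6% of cells with the highest doublet scores they were 3.87 for Car1 and -0.42 for Car2. Median-of-ratios scaling gave -0.48 for Car2. Without cells rich in mast cell or late red cell genes they were 4.13 for Ermap and 3.58 for Rhd. The number of genes at least 2-fold higher and lower was 127 and 433, and became 58 and 125 at a mean CPM of at least 20 and 1038 and 3099 with no filter other than a UMI in each library.

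Within the erythroid-like class the values depended on the setting, and the cause was not tested beyond the cell numbers given. Resolution 0.5 (968 irradiated and 207 control cells) gave 1.45 for Car1, 1.07 for Blvrb, 1.58 for Ermap, 0.69 for Aqp1 and 0.68 for Rhd. Resolution 2 (485 and 38 cells) gave -0.12 for Car1, -0.07 for Car2, -0.14 for Blvrb and -0.44 for Aqp1. With 30 neighbours from all cells the matching cluster took the late red cell name (440 and 35 cells) and gave -0.08 for Car1, -0.1 for Car2, -0.16 for Blvrb and -0.47 for Aqp1. Cells with at least 2 Klf1 UMIs (91 and 5) gave -0.33 for Car1, -0.15 for Car2, -0.47 for Blvrb, 2.04 for Ermap, 0.26 for Aqp1 and 0.14 for Rhd. Leaving out each gene's 10 highest cells, which takes 10 of 532 irradiated but 10 of 52 control cells, gave 1.48 for Car1, 1.41 for Car2, 1.15 for Blvrb, 2.3 for Ermap, 0.77 for Aqp1 and 3.0 for Rhd. Without cells rich in mast cell or late red cell genes the values that moved were -0.16 for Car1, 0.22 for Blvrb and -0.11 for Rhd. The 52 control cells limit every value of this class.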

Other observations

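In the erythroid-like cluster, 2 of 12 genes of the list of commitment stages were at least 2-fold higher in irradiated cells and 1 was lower, with a median log2 ratio of -0.08 over the list and -0.03 over all genes. The lower one was Cd34, a surface protein of progenitors, at 25.7 CPM in irradiated and 60.8 CPM in control cells (-1.24), and at 25.5 and 60.4 CPM without the cells rich in mast cell or late red cell genes. The higher ones were Ly6a, which encodes Sca1, at 82.9 CPM in irradiated and 21.2 CPM in control cells (1.97), and Pf4, a megakaryocyte gene, at 12.3 and 5.53 CPM (1.16, 0.01 to 2.62). Without those cells Ly6a stood at 1.82 and the interval of Pf4 included 0 (0.81, -0.34 to 2.28). Gata2, a transcription factor of stem, mast and early erythroid cells, stood at 155 CPM in irradiated and 292 CPM in control cells (-0.91, -1.08 to -0.74). Without those cells it stood at 155 and 146 CPM (0.09, -0.17 to 0.37), so that the lower value did not remain. Klf1 stood at 147 CPM in irradiated and 96.8 CPM in control cells (0.6, 0.32 to 0.9) and Epor, the erythropoietin receptor, at 52.3 and 35.0 CPM (0.58, 0.11 to 1.09). Without those cells Klf1 stood at 145 CPM in irradiated and 97.1 CPM in control cells, and the interval of Epor (0.24, -0.24 to 0.76) included 0. Slc4a1, the anion exchanger of late red cells, stood at 6.09 CPM in irradiated and 50.7 CPM in control cells. Without those cells it held 1 irradiated and 0 control UMIs. Slc4a1 is itself on the late red cell list by which those cells were left out, so that this fall is no separate result.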
